A study of Mus musculus with 2 samples.

Results

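Mir183, Mir96 and Mir182 are the 3 microRNA genes of the miR-183 cluster on mouse chromosome 6, and they were followed here in the newborn kidney. They are taken by name and by their shared place in the genome, and are 3 of the 1973 microRNA genes with a row in the count tables. All 3 have a row, and all 3 passed the filter of a mean count of at least 10. Small RNA was sequenced from whole kidneys of B6NCrl mice at postnatal day 0, and each of the 2 libraries came from both kidneys of a different pup. The labels name the same pregnancy and the same donor number for both pups, and give no treatment, mutation or sex. There is thus 1 group of 2 samples, so levels are described as they stand and the tests compare the reads of 2 libraries, not conditions.

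MicroRNAs are short RNAs cut from a hairpin, and they lower the output of messenger RNAs that pair with their seed, bases 2 to 8 from the 5′ end. The miR-183, miR-96 and miR-182 hairpins are known to be cut from a shared primary transcript. In mice the cluster is best known from sensory cells, where it is needed by photoreceptors and by hair cells of the inner ear, and changes in the seed of miR-96 cause hearing loss in mouse and human. It is also expressed in several epithelia and in neuroendocrine cells. In all 3 hairpins the 5p arm is known as the main product.

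On mm10 the genes lie on the minus strand, in the order Mir183, Mir96, Mir182 along the direction of transcription. Mir183 (ENSMUSG00000065619.2) is at chr6:30169668-30169737, Mir96 (ENSMUSG00000065586.1) at chr6:30169446-30169551 and Mir182 (ENSMUSG00000076361.1) at chr6:30165918-30165992. Between Mir183 and Mir96 lie 116 bases, and between Mir96 and Mir182 lie 3453. GENCODE M21 places 0 genes of other kinds over the 3820 bases from end to end, leaving out small RNA and TEC genes, so none of the hairpins is annotated within an exon or intron. The nearest such genes are the lincRNA Rncr4, 3155 bases before Mir183 on the opposite strand, and the protein-coding gene Nrf1, 12459 bases beyond Mir182, also on the opposite strand. The hairpins are shown because each count belongs to a whole hairpin and does not separate its 5p and 3p arms, with both mature arms (5p, then 3p) in capitals. They are RefSeq sequences of GRCm38.p6, in which 3 of 3 members matched by symbol.
Mir183 hairpin: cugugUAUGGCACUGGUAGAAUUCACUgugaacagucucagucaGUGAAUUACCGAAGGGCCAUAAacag
Mir96 hairpin: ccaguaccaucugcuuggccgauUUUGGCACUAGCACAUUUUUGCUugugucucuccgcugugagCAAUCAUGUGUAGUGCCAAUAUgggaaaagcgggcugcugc
Mir182 hairpin: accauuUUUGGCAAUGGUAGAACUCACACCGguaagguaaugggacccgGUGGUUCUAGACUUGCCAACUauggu
None of the 3 hairpins shares a stretch of 22 bases with any other of the 2202 microRNA hairpins in GENCODE M21, on either strand. The longest run of identical bases between any pair of the 3 is 8. The 5p arms are shown next with the seed in capitals, beside miR-1271-5p, the other arm of the RefSeq table with a seed of the cluster.
miR-183-5p: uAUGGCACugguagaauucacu
miR-96-5p: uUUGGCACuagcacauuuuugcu
miR-182-5p: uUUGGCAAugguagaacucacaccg
miR-1271-5p: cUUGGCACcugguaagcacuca

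Each member has a seed of its own. Counted from 1 at the 5′ end, the first 8 bases of miR-182-5p differ from those of miR-96-5p by A8C, and from those of miR-183-5p by U2A and A8C. Those of miR-183-5p differ from those of miR-96-5p by A2U. Beyond the seed the likeness is another one. Set side by side from the 5′ end, miR-182-5p and miR-183-5p have 18 of 22 bases in common, miR-183-5p and miR-96-5p 13 of 22, and miR-182-5p and miR-96-5p 12 of 23. The sites that pair with bases 2 to 8 read UUGCCAA for miR-182-5p, GUGCCAA for miR-96-5p and GUGCCAU for miR-183-5p. Among the 1738 mature arms of the RefSeq table, bases 2 to 8 of miR-182-5p and of miR-183-5p occur in 1 arm each, and those of miR-96-5p in 2, itself and miR-1271-5p. Over bases 2 to 7 miR-182-5p, miR-96-5p and miR-1271-5p are alike. The gene that RefSeq gives for miR-1271-5p, Gm24195 on chromosome 13, had 0 counts in both pups, which allows up to 0.780 CPM in pup 2 and 0.514 in pup 1. Mir7022, whose 5p arm shares bases 3 to 8 with miR-182-5p, had 0 counts in pup 2 and 1 in pup 1.

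The tables gave 3846704 counts for named genes in pup 2 and 5832192 in pup 1, on the strand of the gene. Reads that mapped to several places, 31.0% of all reads in pup 2 and 30.3% in pup 1, are listed apart from genes. Levels are given in CPM, the usual scaling of a count by the total of all named-gene counts in its library, as mean ± SD over the 2 pups. The intervals of CPM and of percent below are 95% Wilson intervals and cover counting error of reads only. No molecular identifiers are named in the sources used here, so several reads may come from 1 molecule. The intervals and the p-values of counting error may then be too narrow. The yield of reads per molecule may differ between microRNAs and was not measured, so every level and ratio here is one of reads. In whole tissue, fewer cells of a type and less RNA per cell cannot be told apart. The tissue label was set beside marker lists. MicroRNAs of the Hox clusters held 24.2% of counts in pup 2 and 25.2% in pup 1, led by Mir10a and Mir10b, and those of the mature proximal tubule, led by Mir192 and Mir194-2, 0.0896% in pup 2 and 0.0848% in pup 1. The liver-specific Mir122 held 0.0044% in pup 2 and 0.0057% in pup 1. Striated muscle genes, led by Mir206 and Mir208b, held 0.0009% in each pup with 4 of 8 genes at 0 in both. Erythroid genes, led by Mir451a and Mir144, held 0.0099% in pup 2 and 0.0241% in pup 1. Some hairpins of these lists share 22 bases with another hairpin, so that multimapping reads of theirs may be missing from the counts and the shares may be too low. They are Mir1a-1, Mir133a-1 and Mir133a-2, which are 3 of the 4 muscle genes at 0 (the other is Mir133b), the erythroid Mir451a and Mir486, the tubular Mir194-1 and Mir194-2, and Mir196a-1 and Mir196a-2 of the Hox list. Shared bases were looked for on either strand. A hairpin opposite to another at the same place is therefore marked too, though its reads need not multimap.

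All 3 genes of the cluster were read in both newborn kidneys, with Mir182 highest, Mir183 next and Mir96 lowest. Mir182 had 7434 counts in pup 2 and 12950 in pup 1, which is 1933 CPM (interval 1889 to 1977) in pup 2 and 2220 CPM (2183 to 2259) in pup 1. Mir183 had 3799 counts in pup 2 and 5862 in pup 1, or 988 CPM (957 to 1019) in pup 2 and 1005 CPM (980 to 1031) in pup 1. Mir96 had 2640 counts in pup 2 and 4020 in pup 1, or 686 CPM (661 to 713) in pup 2 and 689 CPM (668 to 711) in pup 1. The pups overlapped within their counting intervals for Mir183 and Mir96 and did not for Mir182. The means were 2076 ± 204 CPM for Mir182, 996 ± 12.4 for Mir183 and 688 ± 2.10 for Mir96 (SD, n = 2 each), so both steps of the order were larger than the SD of either gene. An SD of 2 pups is itself imprecise. As a percent of its mean, it was 9.80% for Mir182, 1.24% for Mir183 and 0.306% for Mir96.

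Together the cluster held 0.361% of counts (0.355 to 0.367) in pup 2 and 0.391% (0.386 to 0.397) in pup 1. Within the cluster Mir182 made up 53.6% of counts (52.8 to 54.4) in pup 2 and 56.7% (56.1 to 57.4) in pup 1. Mir183 made up 27.4% (26.6 to 28.1) in pup 2 and 25.7% (25.1 to 26.2) in pup 1. Mir96 made up 19.0% (18.4 to 19.7) in pup 2 and 17.6% (17.1 to 18.1) in pup 1. The intervals of the pups did not overlap for any of the 3 shares. As the shares add up to the whole cluster, a lower share of Mir182 raises the others, so these are not 3 separate differences. Counted by bases 2 to 7, which Mir182 and Mir96 share, that pair held 72.6% of the cluster in pup 2 and 74.3% in pup 1, with Mir183 as the remainder.

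**Figure D1:**
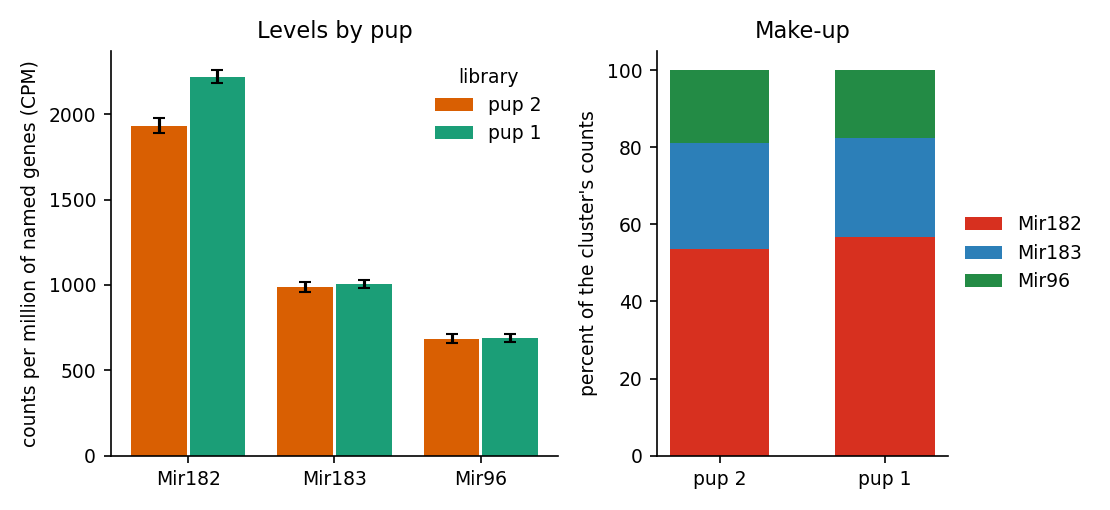
Left, level of each gene in CPM in pup 2 and pup 1, with bars from 0 and 95% Wilson intervals of counting error. Right, percent of the cluster's counts taken by each gene, with Mir182 at 53.6% in pup 2 and 56.7% in pup 1.

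The order of levels did not follow the order along the transcript, since Mir182, farthest from the start, was highest and Mir96, beside Mir183, was lowest. Within a library no scaling is needed to compare members, so the ratios of their counts are given with exact binomial 95% intervals. Mir182 stood at 1.96 times the count of Mir183 (1.88 to 2.04) in pup 2 and 2.21 times (2.14 to 2.28) in pup 1. Mir183 stood at 1.44 times the count of Mir96 (1.37 to 1.51) in pup 2 and 1.46 times (1.40 to 1.52) in pup 1. From highest to lowest, Mir182 over Mir96, the ratio was 2.82 (2.69 to 2.94) in pup 2 and 3.22 (3.11 to 3.34) in pup 1. MicroRNA reads are known to come from the mature arms, of similar length, and not from the whole hairpin, so counts were not divided by hairpin length, which is 75 bases for Mir182, 70 for Mir183 and 106 for Mir96. Per base of the hairpin, a scale chosen after seeing the data, the order was the same, with mean ratios of 1.94 for Mir182 over Mir183, 2.19 for Mir183 over Mir96 and 4.27 for Mir182 over Mir96.

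**Figure D2:**
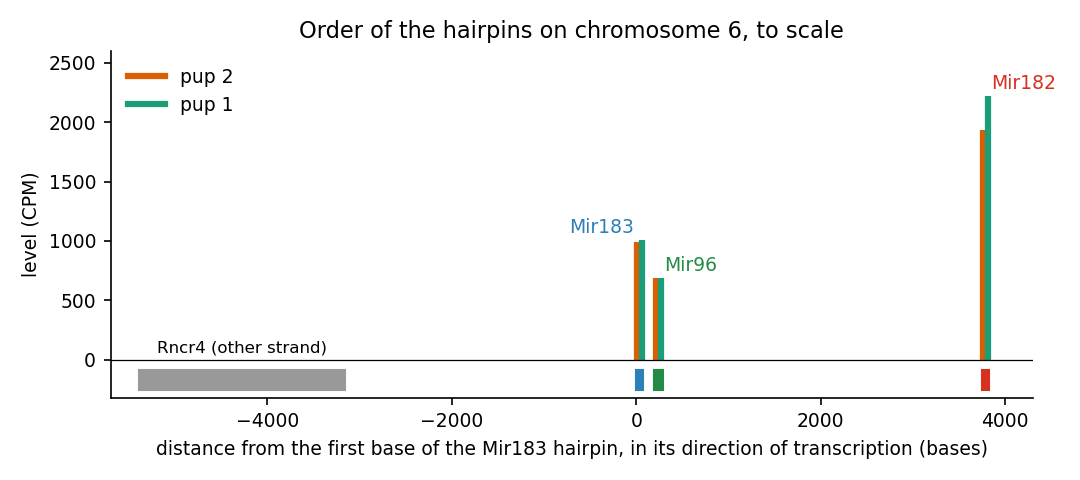
Hairpins of the cluster and the lincRNA Rncr4 to scale, by distance in bases from the start of the Mir183 hairpin, with the level of each hairpin in CPM in pup 2 (left line of each pair) and pup 1. Mir183 and Mir96 lie 116 bases apart, and Mir182, the highest, follows after another 3453 bases.

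Among all microRNA genes by mean CPM, Mir182 ranked 50, Mir183 75 and Mir96 87, while 526 genes had a count in both pups. By pup, Mir182 ranked 54 in pup 2 and 50 in pup 1, Mir183 76 in pup 2 and 74 in pup 1, and Mir96 86 in each. Mir182 was among the 73 genes with at least 1000 CPM in both pups, and Mir183 fell short in pup 2. With 2 samples of 1 group, likeness of pattern across samples cannot be measured. The genes closest in level are named instead, and a close level of reads does not tell of a shared pattern. The genes directly above and below Mir182 were Mir181d, of the miR-181 family, at 2190 ± 298 CPM and Mir195a, of the miR-15/16 family, at 2071 ± 23.1, with Mir296 (2429 ± 262) and Mir423 (2054 ± 217) next to them. Values of the pups overlapped with those of Mir182 for all but Mir296. Around Mir183 stood Mir187 (1084 ± 117) and Mir127 (1053 ± 145), above, and Mir379 (986 ± 155) and Mir455 (956 ± 36.9), below. Mir127 and Mir379 belong to the imprinted Dlk1-Dio3 region. Of these 4, Mir455 alone did not overlap with Mir183. Around Mir96 stood Mir16-2 (708 ± 32.8), a hairpin that shares 22 bases with another, and Mir532 (696 ± 22.6), above, and below it Mir141 (657 ± 16.6), of the miR-200 family, and Mir221 (649 ± 24.3). Mir16-2 and Mir532 overlapped with Mir96, and Mir141 and Mir221 did not. Neighbours that overlap are not ordered by 2 pups.

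**Figure D3:**
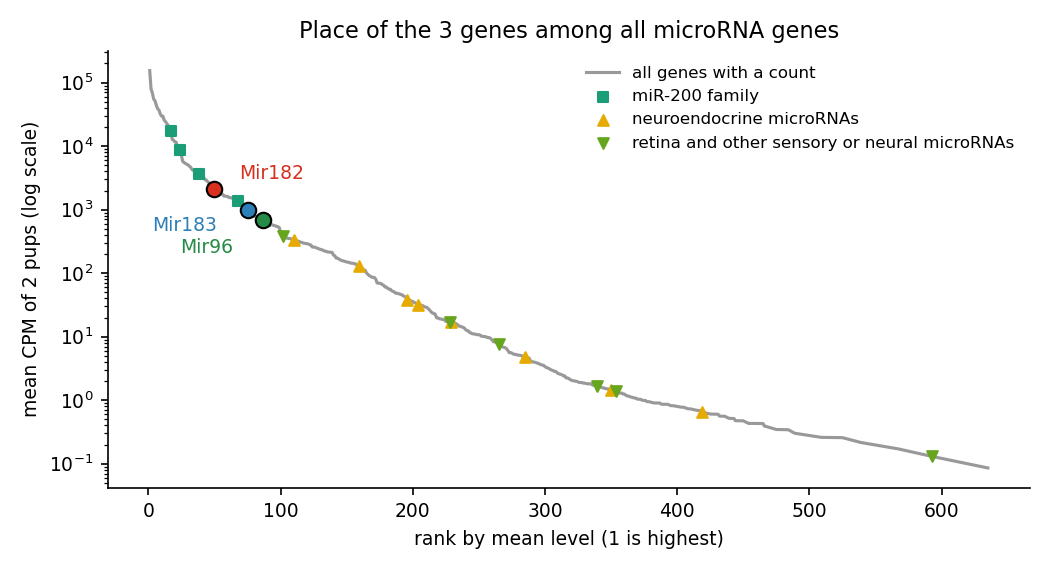
Mean CPM of 2 pups on a log scale against rank for microRNA genes with a count, with the 3 genes of the cluster and 3 gene lists marked. Mir182, Mir183 and Mir96 lie at ranks 50, 75 and 87, among the lower members of the miR-200 family and above every neuroendocrine and sensory or neural gene with a count.

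The lists nearest to the known sites of the cluster were set beside it. The epithelial miR-200 family, which is known to hold the epithelial state, held 3.17% of counts in pup 2 and 3.16% in pup 1. That is 8.78 times the count of the miR-183 cluster in pup 2 and 8.06 times in pup 1. Its genes were Mir429 at 17174 ± 27.8 CPM, Mir200b at 8730 ± 220, Mir200c at 3671 ± 128, Mir200a at 1373 ± 25.8 and Mir141 at 657 ± 16.6. Mir182 thus stood between Mir200c and Mir200a, Mir183 between Mir200a and Mir141, and Mir96 just above Mir141. Neuroendocrine microRNAs together held 0.0572% in pup 2 and 0.0534% in pup 1, which is 0.159 times the count of the cluster in pup 2 and 0.136 times in pup 1, and 0 of 8 reached the level of Mir96. Mir132 had 335 CPM in pup 2 and 326 in pup 1, and Mir375, known from islet and other endocrine cells, 141 in pup 2 and 117 in pup 1. Mir7-1 had 38.5 CPM in pup 2 and 38.2 in pup 1, and Mir212 34.3 in pup 2 and 29.7 in pup 1. Mir129-1 averaged 16.8 ± 2.74 CPM, Mir7b 4.75 ± 3.57, Mir129-2 1.46 ± 0.598 and Mir7-2 0.647 ± 0.188.

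MicroRNAs of retina and other sensory or neural cells held 0.0427% in pup 2 and 0.0386% in pup 1, which is 0.118 times the count of the cluster in pup 2 and 0.0985 times in pup 1, and 0 of 9 reached Mir96. Mir204, also made by pigment epithelium, led with 399 CPM in pup 2 and 358 in pup 1. It alone held 1534 of the 1643 counts of this list in pup 2 and 2089 of 2249 in pup 1. The shares and ratios of the list are thus mostly those of Mir204. Mir137 averaged 16.9 ± 1.10 CPM, Mir153 7.80 ± 0.368, Mir9-3 1.68 ± 0.196, Mir211 1.38 ± 0.477 and Mir9-2 0.130 ± 0.184. No count fell on the 3 neuronal genes Mir124a-1, Mir124a-2 and Mir124a-3 in pup 2 or in pup 1, but they share 22 bases with each other or with another hairpin, so reads of theirs may be listed as multimapping. The same holds for Mir7-1, Mir7-2, Mir129-1, Mir129-2, Mir9-2 and Mir9-3, and not for the cluster or for the miR-200 family. The part of any such cell type in the counts of the cluster was not tested.

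Between the pups, Mir182 was lower in pup 2 by a test of counting error alone, while Mir183 and Mir96 did not pass the test. Ratios are pup 2 over pup 1 on the log2 scale after TMM scaling, with 95% counting intervals and an exact two-sided binomial test adjusted by Benjamini-Hochberg over all 324 genes tested. Mir182 had a log2 ratio of -0.22 (-0.26 to -0.18; exact binomial test, adjusted p = 3.6e-25), which is 0.858-fold. Mir183 had -0.05 (-0.11 to 0.01; same exact test, adjusted p = 0.28) and Mir96 -0.03 (-0.10 to 0.04; exact adjusted p = 0.64). The intervals of Mir183 and Mir96 reach down to -0.11 and -0.10, so differences of up to that size remain compatible with their counts. Of all genes tested, 33.6% passed in either direction and 21.0% as lower in pup 2, and 1 of 3 members passed, so the count of members is near that of all genes. The median log2 ratio was -0.05 over the members and -0.04 over all 324 genes, and 101 genes differed more than Mir182 in absolute log2 ratio. Some of the 101 had higher counts than Mir182, such as Mir30e (-0.23). Others had far lower counts, such as Mir292 (-0.69, interval -2.01 to 0.47), with 9 in pup 2 and 22 in pup 1. Ratios of low counts carry more counting error, which was not corrected for. The 101 thus do not tell how usual the difference of Mir182 was. In the miR-200 family 2 of 5 genes passed as lower in pup 2, Mir200c (-0.09) and Mir429 (-0.02), and 1 as higher, Mir200b (0.03). Before TMM scaling Mir429 was slightly higher in pup 2, with 17193 CPM in pup 2 and 17154 in pup 1. Its direction thus depends on the scaling. Of the neuroendocrine genes, 6 of 8 could be tested, and Mir375 (0.24) and Mir7b (1.64) passed as higher and 0 as lower. Of the sensory or neural genes, 3 of 9 could be tested, and Mir204 (0.13) passed as higher and 0 as lower, where 12.7% of all genes passed as higher. Markers of other cells also differed between the pups. Mir451a of red cells had 53.6 CPM in pup 2 and 208 in pup 1, Mir144 42.9 in pup 2 and 32.2 in pup 1, and Mir486 2.34 in pup 2 and 0.686 in pup 1. Of these, Mir451a and Mir486 share 22 bases with another hairpin, on either strand, and Mir144 does not. The part of red cells in the lower Mir182 of pup 2 was not tested.

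That test knows counting error alone. With the spread between the pups as edgeR's common dispersion, a coefficient of variation of 9.29%, the edgeR exact test gave Mir182 an adjusted p of 1 and an unadjusted p of 0.25. It called 1 of 324 genes, or 0.309%, after Benjamini-Hochberg adjustment and 14 at an unadjusted p under 0.05. The gene called was Mir451a, with a log2 ratio of -1.98 (edgeR exact test, adjusted p = 9.1e-17). The other tested erythroid gene, Mir144, went the other way at 0.39 and was not called by edgeR. The dispersion that the edgeR test used came out of these same 2 libraries, taken as 1 group. The difference under test was thus part of the spread it was held against, so few calls were likely from the start.

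**Figure D4:**
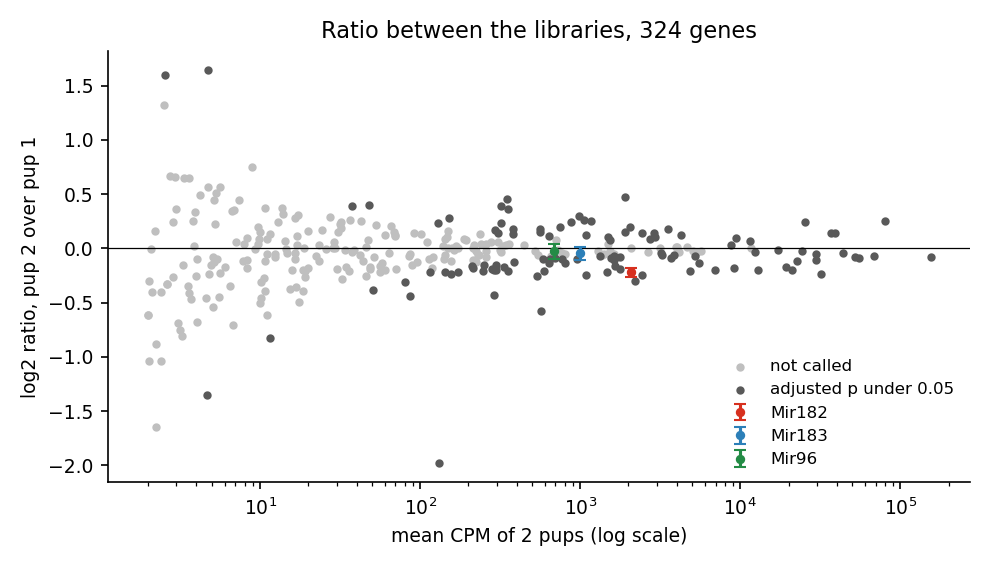
Log2 ratio of pup 2 over pup 1 against mean CPM on a log scale for the 324 genes tested, dark where the adjusted p of the exact binomial test is under 0.05. Mir182 lies at -0.22, Mir183 at -0.05 and Mir96 at -0.03, with 95% counting intervals as vertical bars.

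The make-up of the cluster was next compared between the libraries, which depends on no scaling. The ratio of Mir182 to Mir183 differed by a log2 value of -0.17, lower in pup 2 (95% interval -0.25 to -0.10, two-sided Fisher's exact p = 1.9e-06, or 5.5e-06 adjusted over the 3 pairs of members). The ratio of Mir182 to Mir96 differed by -0.19, also lower in pup 2 (-0.28 to -0.11, Fisher's exact p = 3.7e-06, adjusted 5.5e-06). The ratio of Mir183 to Mir96 differed by -0.02 (-0.11 to 0.07, Fisher's exact p = 0.7, adjusted 0.7), so no difference between the neighbouring hairpins was detected. These tests again cover counting error and 2 libraries. Among 41 genomic clusters of microRNA genes, 19 had a smaller range of log2 ratios among their members than the 0.19 of the miR-183 cluster, and the median range was 0.20. Such a range takes in counting error and can only grow with each further member, and neither was corrected for. Clusters of low counts are included. The place among the 41 thus does not tell how usual the difference in make-up was.

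Among those 41 clusters, the spread of levels within the miR-183 cluster was below the median. A cluster here is a run of genes on the same strand with gaps of at most 10 kb, with at least 2 genes of a mean count of at least 10, and its spread is the mean CPM of its highest gene over that of its lowest such gene. The spread was 3.02-fold in the miR-183 cluster, against a median of 11.6-fold and quartiles of 2.53 and 71.7 over all clusters, and 13 clusters had a smaller spread. Of the 12 clusters with at least 3 such genes, 1 had a smaller spread, the low-level Mir292, Mir293 and Mir294 at 1.61-fold, and the median was 51.7-fold. Such a spread can only grow with each further member. Several of the 12 hold more than 3 such genes, and this was not corrected for. For comparison, chosen after their values were seen, Mir93 stood 8.73-fold above Mir25 in the cluster that also holds Mir106b, and Mir429 stood 12.5-fold above Mir200a in the cluster that also holds Mir200b. Many clusters hold a hairpin that shares 22 bases with another, whose count leaves out multimapping reads. Among the 18 clusters without such a hairpin, 6 had a smaller spread than the miR-183 cluster and the median was 8.17-fold. Of the 4 of them with at least 3 genes, 0 had a smaller spread. These are descriptions of 2 libraries, with no test.

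**Figure D5:**
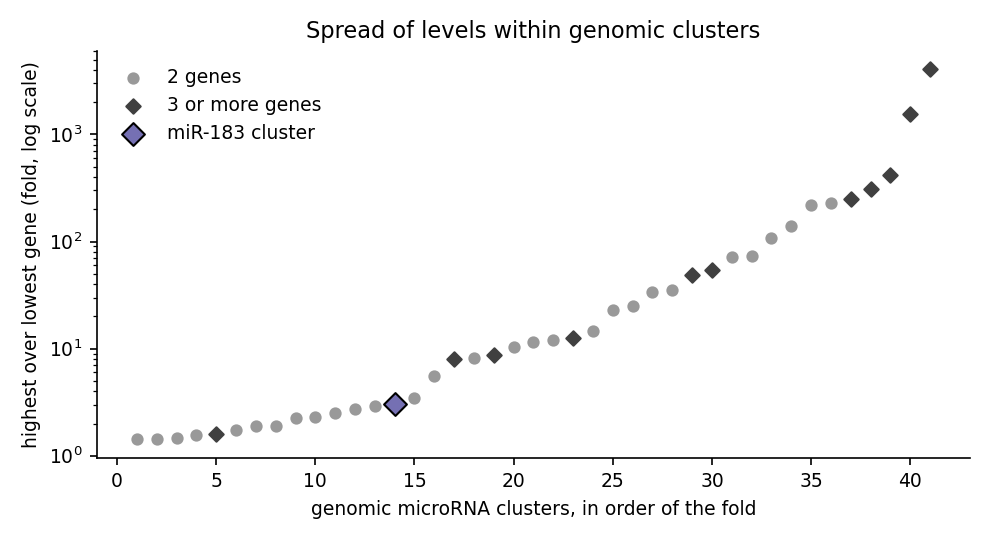
Highest over lowest mean CPM within each of 41 genomic microRNA clusters on a log scale, in order, with clusters of 2 genes as circles and larger ones as diamonds. The miR-183 cluster, at 3.02-fold, has 13 clusters below it, of which 1 holds 3 or more genes.

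Other microRNA genes of chromosome 6 within 1 Mb of the cluster had counts unlike those of its members. Mir335, in an intron of the imprinted gene Mest 572 kb away on the other strand, had 53597 CPM in pup 2 and 56312 in pup 1. Mir29a, 893 kb away on the strand of the cluster, had 96.7 CPM in pup 2 and 86.2 in pup 1, and Mir29b-1 beside it 4 counts in pup 2 and 1 in pup 1. Multimapping reads are left out of these counts, so a low count such as that of Mir29b-1 need not mean a low level. Gm23049, the nearest at 177 kb, had 0 counts in both pups, and Gm26220 0 in pup 2 and 1 in pup 1, and Gm44354 has no row of its own. Reads on the strand opposite to the members were nearly absent. In pup 2 there was 1 at Mir182 and 0 at Mir183 and Mir96, and in pup 1 there were 3 at Mir182, 4 at Mir183 and 0 at Mir96, where a count of 0 allows up to 3.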

How the data were processed

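Small RNA of 2 newborn mouse kidney samples was sequenced, and the authors deposited raw counts of reads per gene, aligned to mm10 and counted over annotation release M4, per the notes deposited with the tables. For aligner, trimming and filters, nothing is given in the sources used here. The tables have no header and 3 count columns. Column 3 was used, as the gene's own strand, a meaning read from the values and from row names like those of STAR's gene counts. Rows that name no gene, 42.6% of reads in pup 2 and 41.8% in pup 1, stayed out of library sizes and tests. Gene IDs were matched without version to GENCODE M21, also mm10, for 1894 of 1973 rows. CPM uses the total of all named genes.

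Ratios between pups used TMM factors over all rows (edgeR 4.0.16, R 4.3.3), a prior count of 0.5 and a mean count of at least 10. They were tested by an exact binomial test (SciPy 1.17.1) at an adjusted p of 0.05. That test was also run on simulated counts with counting error alone. As these had no spread between pups, the run does not tell how the test performs under such spread. Alternatives were DESeq2 1.42.0 size factors, other totals, filters, strands and an edgeR exact test. Named are the members, the 2 genes above and below each by level, genes of the miR-200, neuroendocrine and sensory or neural lists, the highest 2 of the Hox, proximal tubule, erythroid, liver and striated muscle lists, seed relatives and microRNAs within 1 Mb. The rule for the members uses names and positions, not measured values, but the cluster, the lists and the tests were chosen with earlier results of these data known. The p-values cover the reads of 2 libraries, whose difference may be technical.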

Additional observations from a re-analysis of the deposited data

Results flagged for a closer look

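Mir183 had 4 reads on the opposite strand in pup 1, above the limit of 3 counts that a count of 0 allows, in a column that the levels do not use. In pup 2 the same column held 0 reads at Mir183. Against 5862 counts on the strand of the gene in pup 1, this does not change any level reported.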

How the results depend on the processing

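With all reads as the total, levels were 1201 CPM for Mir182, 576 for Mir183 and 398 for Mir96, and the share of the cluster 0.218%. Without Mir10a in the total they were 2456, 1178 and 813 CPM, and 0.445%. With counts on either strand, Mir183 had 976 and Mir96 674 CPM. These follow from the totals, and the order of the 3 genes was the same in each. TMM and DESeq2 scaling moved each level and the share by less than the SD. Leaving out a pup gave 1933 to 2220 CPM for Mir182, 988 to 1005 for Mir183, 686 to 689 for Mir96 and 0.361% to 0.391% for the share, and ratios of 1.96 to 2.21, 1.44 to 1.46 and 2.82 to 3.22 for Mir182 over Mir183, Mir183 over Mir96 and Mir182 over Mir96. Per base of the hairpin, chosen after seeing the data, Mir183 over Mir96 was 2.19 and Mir182 over Mir96 4.27. The log2 ratio of Mir182 was -0.22 with edgeR's dispersion too, where the adjusted p was 1 and the calls fell to 1 gene, against 109 with the exact binomial test. That dispersion was drawn from the difference between the same 2 libraries, so few calls were likely with it. In the other 7 alternatives the log2 ratio of Mir182 ran from -0.22 to -0.20 and passed (exact binomial test, adjusted p at most 2.1e-20). Mir183 and Mir96 passed in none of the 8. The share of genomic clusters with a smaller spread, 31.7%, ran from 27.8% to 35.9% with gaps of 5 or 50 kb, a mean count of 100 or no hairpin sharing 22 bases. No paired analysis was possible because there is 1 group of 2 samples. TMM over the tested genes alone and leaving out clusters that share 22 bases were also chosen after seeing the data. The smaller depth of pup 2 gives it the wider intervals.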
